A study of Dunaliella tertiolecta with 6 samples.

Results

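The genes described here are the 31 of 14354 genes in the expression table of the green alga Dunaliella tertiolecta whose symbol in the deposited annotation names a proteasome subunit: POA or PBA to PBG for the 20S core (14 genes), RPT or RPN for the 19S cap (17 genes), each followed by a number and at most 1 copy letter. All 31 were above the filter on low values. RNA with poly(A) tails came from vegetative cells of the strain UTEX LB 999, labelled WT, kept at 24 °C on a shaker at 140 rpm, with the light always on and 2 M NaCl in the medium. Cells without added iron (0 µM) were compared with cells given 1.5 µM added iron, in 3 flasks each. The labels give 2 d in one place and 3 days of growth in another. The labels do not say whether the flasks came from separate precultures, so p-values measure only the spread between these flasks.

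The proteasome is the large protease of the cytosol and nucleus that degrades proteins marked with ubiquitin. Its barrel-shaped 20S core is built of rings of alpha and beta subunits, with the protease sites on some beta subunits inside. The 19S cap on its end binds ubiquitin chains, removes them, unfolds the substrate with a ring of ATPases and feeds it into the core. Because the subunits assemble into one particle, their genes are often expressed together, as is known best from yeast.

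The symbols were checked against the makeup of a proteasome. All 7 alpha genes, POA1 to POA7, were present once. The beta genes were PBA1, PBA2, PBB1, PBC1, PBD1, PBE1 and PBG1, and no gene carried the symbol PBF1. Among the cap genes no symbol RPT3, RPN5, RPN9 or RPN13 was used, so those subunits are not described. Models of the 20S genes had coding lengths of 606 to 867 nt (median 744 nt), and those of the 19S genes 216 to 3084 nt (median 1203 nt), against a median of 1221 nt over the 11273 tested genes. The annotation gives symbols and gene models and no sequence, so no protein or promoter is shown.

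Values are FPKM, a count of fragments divided by transcript length and by the mapped reads of the library, so levels of different genes can be compared per length. FPKM sums were lower in the libraries at 0 µM, at 808592 to 898151, than at 1.5 µM, at 982304 to 1021467. The median over all tested genes was 11.2 to 11.9 FPKM at 0 µM and 11.7 to 11.8 FPKM at 1.5 µM. The number of genes above 0 was 12253 to 12509 per library. Both replicate 3 libraries stood apart in how their low values were spaced: with the full coding length 1.42% and 1.79% of values under 0.5 FPKM fell in the commonest 1% wide bin, against 7.64% to 11.9% in the other 4 libraries. Results are therefore also given for replicates 1 and 2 alone, a setting chosen after seeing the data. Read totals were not used here.

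Without added iron, 15 of the 31 proteasome genes rose, and limma called 0 lower (0 also at an unadjusted p under 0.05). Over all tested genes 11.6% were called higher and 18.7% lower, with a limma adjusted p under 0.05. The rises were small: none reached 2-fold, and the largest was 1.36-fold. The median log2 fold change was 0.21 over the 31 genes and -0.03 over all tested genes. By complex, 12 of 14 genes of the 20S core rose (median 0.29), as did 3 of 17 of the 19S cap (median 0.20). No test of the difference between core and cap was made. In bulk RNA, fewer cells carrying a transcript and less of it per cell cannot be told apart. Fold changes are differences of log2(FPKM + 1) at 0 µM minus 1.5 µM, with their standard error (SE) and a p-value adjusted over all tested genes.

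The number of calls depended on single libraries and on the scaling, whereas the medians moved little except with equal sums. It was 7, 4 and 9 of 31 without replicate 1, 2 or 3 at 0 µM, where 8.81%, 7.05% and 8.39% of all tested genes were called higher. It was 7, 12 and 7 without replicate 1, 2 or 3 at 1.5 µM, where 9.15%, 11.4% and 7.60% were. With replicates 1 and 2 alone it was 2 of 31, PBG1 and RPN8, where 4.88% of all tested genes were called higher and 10.1% lower. The medians in that setting were 0.31 for the 20S and 0.20 for the 19S genes. When the FPKM sums were set equal, 28 of 31 were called higher, where 28.3% of all tested genes were higher and 9.63% lower, and the median of all tested genes moved to 0.17, that of the 20S genes to 0.52 and that of the 19S genes to 0.42. The split over all tested genes was 1303 higher and 2105 lower, and 3189 and 1086 with equal sums.

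Among the alpha subunit genes, whose products form the outer rings of the core and its gate, 5 of 7 rose. Over all tested genes 11.6% were called higher. POA3 (Dte_g06966) had 81.3, 89.5 and 78.4 FPKM in the libraries at 0 µM, against 59.1, 66.6 and 56.6 FPKM at 1.5 µM (log2 fold change 0.45, SE 0.09, limma adjusted p = 0.008392). All 3 of its values without added iron lay above all 3 with it, and its fold change was the largest of the 31. POA7 (Dte_g05585) stood at 66.5, 68.5 and 61.5 FPKM at 0 µM and at 50.1, 53.0 and 52.0 FPKM at 1.5 µM (0.33, SE 0.07, limma adjusted p = 0.01107). For POA2 (Dte_g03187) the values were 100.2, 107 and 97.7 FPKM without added iron and 78.0, 82.5 and 87.0 FPKM with it (0.30, SE 0.07, limma adjusted p = 0.01929). Neither gene overlapped between the levels. POA5 (Dte_g13396) gave 93.1, 95.7 and 92.3 FPKM at 0 µM, against 82.6, 78.4 and 76.8 FPKM at 1.5 µM (0.24, SE 0.06, limma adjusted p = 0.02612). In POA4 (Dte_g04363) 83.7, 87.1 and 82.1 FPKM at 0 µM stood against 71.9, 73.2 and 72.5 FPKM at 1.5 µM (0.21, SE 0.06, limma adjusted p = 0.03535). POA5 and POA4 had the smallest SE among the called alpha genes, and their groups were apart as well.

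The remaining alpha genes were POA6 and POA1, which did not pass. POA6 (Dte_g10142) had 75.3, 74.8 and 72.8 FPKM at 0 µM and 66.4, 65.4 and 66.6 FPKM at 1.5 µM (0.17, SE 0.06, limma adjusted p = 0.07492). Its groups did not overlap, and it had the smallest fold change of the core. POA1 (Dte_g06741) had 87.6, 91.4 and 76.0 FPKM at 0 µM and 68.5, 79.0 and 72.5 FPKM at 1.5 µM (0.21, SE 0.09, limma adjusted p = 0.1319). Here replicate 3 at 0 µM lay below replicate 2 at 1.5 µM, so the groups overlapped.

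All 7 beta subunit genes rose, where 11.6% of all tested genes were called higher. PBG1 (Dte_g10144), a non-catalytic beta subunit, had 102, 100.4 and 98.3 FPKM in the 0 µM libraries, against 70.0, 78.1 and 74.0 FPKM in those at 1.5 µM (0.43, SE 0.07, limma adjusted p = 0.002906). This was the smallest p of the 31, and the groups did not overlap. Genes of all 3 kinds of catalytic subunit, PBA1, PBA2, PBB1 and PBE1, rose in the fit as reported. Without 0 µM replicate 2, or without replicate 1 or 3 at 1.5 µM, none of these 4 genes kept its call. The same held with replicates 1 and 2 alone. In these fits 4.88% to 9.15% of all tested genes were called higher. For the caspase-like subunit the annotation holds 2 genes. PBA2 (Dte_g02061) had 70.6, 76.3 and 66.9 FPKM at 0 µM, against 53.5, 63.6 and 49.8 FPKM at 1.5 µM (0.36, SE 0.10, limma adjusted p = 0.03771). PBA1 (Dte_g11339) had 44.1, 50.1 and 44.1 FPKM at 0 µM, against 37.4, 40.0 and 33.6 FPKM at 1.5 µM (0.31, SE 0.09, limma adjusted p = 0.04038). In every library PBA2 was 1.43 to 1.60 times as high as PBA1, and both copies rose. The sources used here do not give how reads matching both copies were assigned. In the trypsin-like subunit gene PBB1 (Dte_g07511) the libraries at 0 µM had 81.3, 92.9 and 85.6 FPKM and those at 1.5 µM had 63.7, 73.8 and 71.2 FPKM (0.31, SE 0.08, limma adjusted p = 0.02934). PBE1 (Dte_g01396), the chymotrypsin-like subunit gene, had 95.8, 88.7 and 86.2 FPKM at 0 µM, against 73.7, 78.0 and 71.9 FPKM at 1.5 µM (0.27, SE 0.07, limma adjusted p = 0.0259). Neither PBB1 nor PBE1 overlapped between the levels.

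The other beta genes encode subunits without a protease site. PBC1 (Dte_g00847) had 73.4, 65.6 and 63.8 FPKM at 0 µM, against 52.2, 53.1 and 59.8 FPKM at 1.5 µM (0.29, SE 0.09, limma adjusted p = 0.04002). PBD1 (Dte_g12157), the highest of the core genes, reached 121, 126 and 113 FPKM at 0 µM, against 94.8, 107 and 95.04 FPKM at 1.5 µM (0.28, SE 0.08, limma adjusted p = 0.03371). Within the core the lowest level was that of PBA1, at 46.1 ± 3.49 FPKM without and 37.0 ± 3.21 FPKM with added iron, and the highest was 119.8 ± 6.64 and 98.8 ± 6.81 FPKM in PBD1 (SD, n = 3 each). All 7 beta genes had groups that did not overlap, and so had 13 of the 14 core genes, where 19.6% of all tested genes had all 3 libraries at 0 µM above all 3 at 1.5 µM.

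Of the 12 calls in the core, that of PBG1 held in each of the 17 alternative settings. The calls of POA3 and POA7 held in all but the fit with replicates 1 and 2 alone (limma adjusted p = 0.0584 and 0.0518). Without 0 µM replicate 1 the calls kept were POA3, POA7, PBB1 and PBG1, without replicate 2 POA3, POA7 and PBG1, and without replicate 3 POA2, POA3, POA7, PBD1, PBE1 and PBG1. Leaving out 1.5 µM replicate 1 kept POA3, POA5, POA7 and PBG1, and leaving out replicate 3 kept POA2, POA3, POA7, PBC1 and PBG1. Without 1.5 µM replicate 2 only POA4, POA5 and PBC1 were lost. PBC1 also lost its call with the replicate number as a block (limma adjusted p = 0.0523). Without the variance trend POA4, PBA1, PBA2, PBC1 and PBD1 lost theirs. Without the filter on low values PBA1 and PBA2 lost theirs, and POA6, not among the 12, was called. All 12 genes stayed higher without added iron in every setting run, with log2 fold changes between 0.19 and 0.67.

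**Figure D1:**
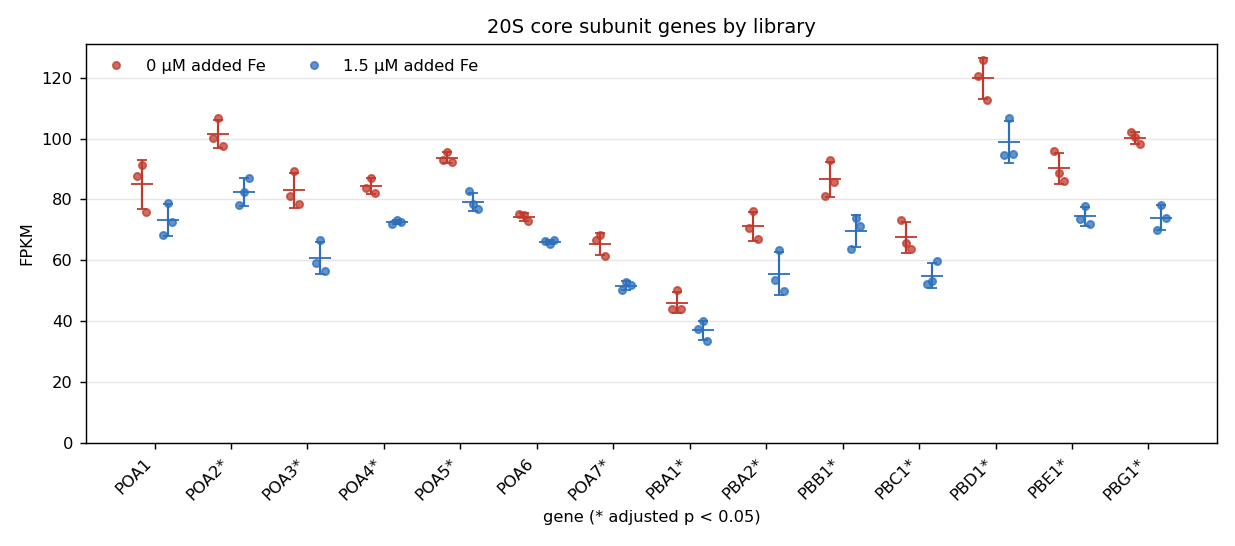
FPKM of the 14 genes of the 20S core in each library, with 0 µM added iron in red to the left of 1.5 µM in blue; points are libraries, horizontal bars means and error bars SD (n = 3). In 13 of 14 genes the red points lie wholly above the blue ones, and POA1 is the exception.

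In the 19S cap, 1 of 5 ATPase genes rose, where 11.6% of all tested genes were called higher. RPT2 (Dte_g07216), an ATPase whose tail docks on the core and helps open its gate in yeast, had 75.6, 79.4 and 73.7 FPKM at 0 µM, against 63.0, 63.5 and 56.0 FPKM at 1.5 µM (0.32, SE 0.08, limma adjusted p = 0.01721). All values without added iron were above those with it. The other ATPases RPT1, RPT4 and RPT6, which take part in unfolding, also had groups that did not overlap. Over all tested genes 19.6% had all 3 libraries at 0 µM above all 3 at 1.5 µM. RPT1, RPT4 and RPT6 did not pass and stood at 0.20 each, with limma adjusted p of 0.07266, 0.08403 and 0.05396. RPT6 (Dte_g03175) came nearest, with 57.0, 59.8 and 59.2 FPKM at 0 µM, against 51.9, 49.2 and 51.9 FPKM at 1.5 µM. RPT5 (Dte_g13403) went the other way, with 63.4, 66.2 and 65.3 FPKM at 0 µM and 69.8, 70.8 and 66.9 FPKM at 1.5 µM (-0.09, SE 0.06, limma adjusted p = 0.3218). Its 3 values without added iron lay below all those with it, the only such case among the 31, where 28.0% of all tested genes had that order, and with equal sums its fold change was 0.14 in the opposite direction.

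Among the non-ATPase genes of the cap 2 of 12 (16.7%) rose, near the 11.6% of all tested genes called higher. Both are of the lid, the part that holds the deubiquitinase. RPN8 (Dte_g12139), the partner subunit of the deubiquitinase RPN11, had 71.3, 74.6 and 69.4 FPKM at 0 µM, against 55.1, 54.5 and 52.0 FPKM at 1.5 µM (0.41, SE 0.07, limma adjusted p = 0.003453). RPN3 (Dte_g01185), a structural lid subunit, had 56.7, 60.1 and 52.3 FPKM at 0 µM, against 44.0, 44.8 and 44.9 FPKM at 1.5 µM (0.33, SE 0.07, limma adjusted p = 0.01426). The groups of both genes were apart. RPN8 kept its call in all 17 alternatives. RPN3 lost it without 0 µM replicate 2 and with replicates 1 and 2 alone, and RPT2 lost it in those settings and without 1.5 µM replicate 3 (limma adjusted p of up to 0.0516 for RPN3 and 0.0896 for RPT2).

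The lid genes RPN12 (0.21, limma adjusted p = 0.09028), RPN6 (0.18, limma adjusted p = 0.1233) and RPN15 (0.29, limma adjusted p = 0.1635) and the scaffold gene RPN1 of the base (0.19, limma adjusted p = 0.06268) did not pass. Their groups did not overlap, where 19.6% of all tested genes had all 3 libraries at 0 µM above all 3 at 1.5 µM. RPN15, for the small acidic subunit known as Sem1 in yeast, had the highest level of the 31. It gave 143, 203 and 145 FPKM at 0 µM, against 138, 137 and 122 FPKM at 1.5 µM. Replicate 2 at 0 µM stood far above the rest, and at 20.9% of the mean the SD at 0 µM was the largest among the members. Its model is the shortest, with 216 nt of coding sequence. RPN1 (Dte_g14131) varied least of the 31 at 0 µM, with 46.9, 46.8 and 46.9 FPKM at 0 µM and 42.2, 39.3 and 41.4 FPKM at 1.5 µM. RPN7, a structural lid subunit, had 55.7, 53.8 and 55.9 FPKM at 0 µM and 57.2, 53.7 and 51.6 FPKM at 1.5 µM (0.03, 95% interval -0.14 to 0.19). For the ubiquitin receptor gene RPN10 the values were 33.8, 32.7 and 28.2 FPKM at 0 µM and 32.8, 27.7 and 27.7 FPKM at 1.5 µM (0.10, 95% interval -0.14 to 0.34). The groups of RPN7 and RPN10 overlapped.

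A pair of cap subunits has lettered copies. RPN2, a scaffold of the base, is present as RPN2A (scaffold_03, 3849575 to 3876875, coding length 3084 nt) and RPN2B (scaffold_02, 11160199 to 11187135, coding length 2880 nt). RPN2A had 36.8, 37.9 and 40.4 FPKM at 0 µM and 37.7, 38.1 and 36.7 FPKM at 1.5 µM (0.03, 95% interval -0.13 to 0.19). RPN2B had 37.0, 38.3 and 40.0 FPKM at 0 µM and 37.3, 37.6 and 36.5 FPKM at 1.5 µM (0.05, 95% interval -0.11 to 0.21). The copies differed by 0.445% to 1.37% within a library, so reads may have been shared between them and their separate levels are uncertain. RPN11, the deubiquitinase of the lid, is present as RPN11A (scaffold_03, 11295451 to 11312116, 798 nt) and RPN11B (scaffold_08, 24111 to 33063, 579 nt), which differed by 5.29 to 7.75 times. RPN11A had 63.6, 69.3 and 60.8 FPKM at 0 µM and 57.3, 55.7 and 53.8 FPKM at 1.5 µM (0.21, SE 0.07, limma adjusted p = 0.06885). RPN11B had 9.32, 9.52 and 7.85 FPKM at 0 µM and 9.71, 7.78 and 10.2 FPKM at 1.5 µM (-0.04, SE 0.12, limma adjusted p = 0.817), and its fold change was 0.16 with equal sums. RPN11A was separated by level without passing, where 19.6% of all tested genes had all 3 libraries at 0 µM above all 3 at 1.5 µM. RPN11B, the lowest of the 31 genes, overlapped.

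**Figure D2:**
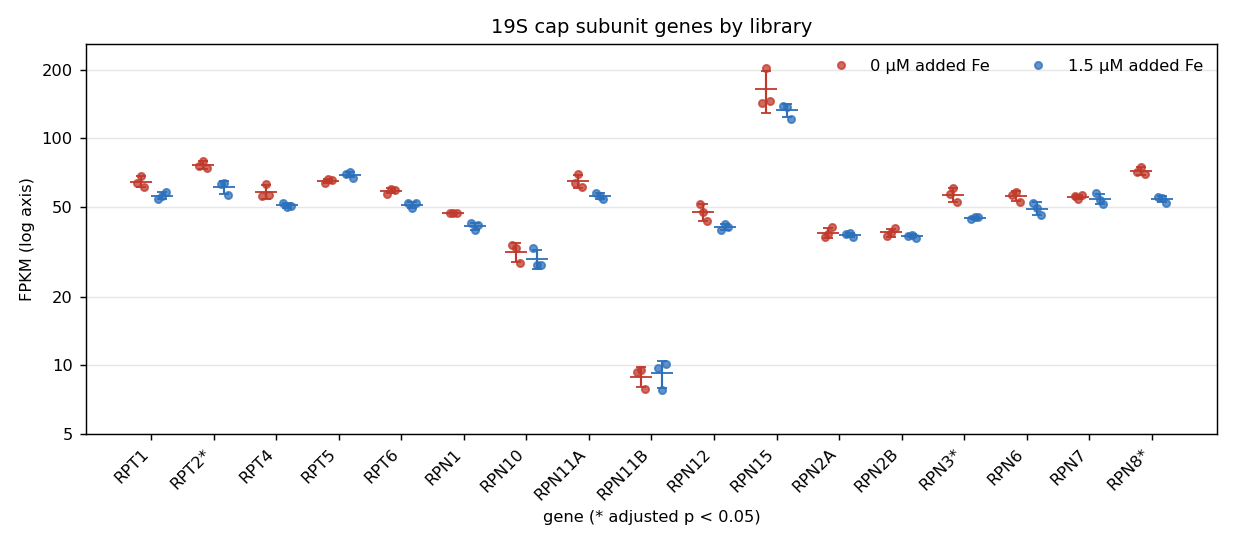
FPKM of the 17 genes of the 19S cap in each library on a log axis, with 0 µM added iron in red to the left of 1.5 µM in blue; points are libraries, horizontal bars means and error bars SD (n = 3). RPT2, RPN3 and RPN8 carry the star for an adjusted p under 0.05, RPN15 is the highest gene and RPN11B the lowest.

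Split by the parts of the cap, 1 of 9 genes of the base (RPT genes, RPN1, RPN2A, RPN2B and RPN10; median 0.19) and 2 of 8 genes of the lid (median 0.21) rose. That is 11.1% of the base, where 11.6% of all tested genes were called higher, so the base stood near that share. RPN2A and RPN2B, whose reads may have been shared, each enter the counts and medians of base and cap as 1 gene. The scaling decided how many cap genes passed: 8 of 17 with median ratios and 7 of 17 with quantile normalization, where 14.8% and 15.2% of all tested genes were called higher. With equal sums 14 of 17 did, where 28.3% of all tested genes were called higher.

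**Figure D3:**
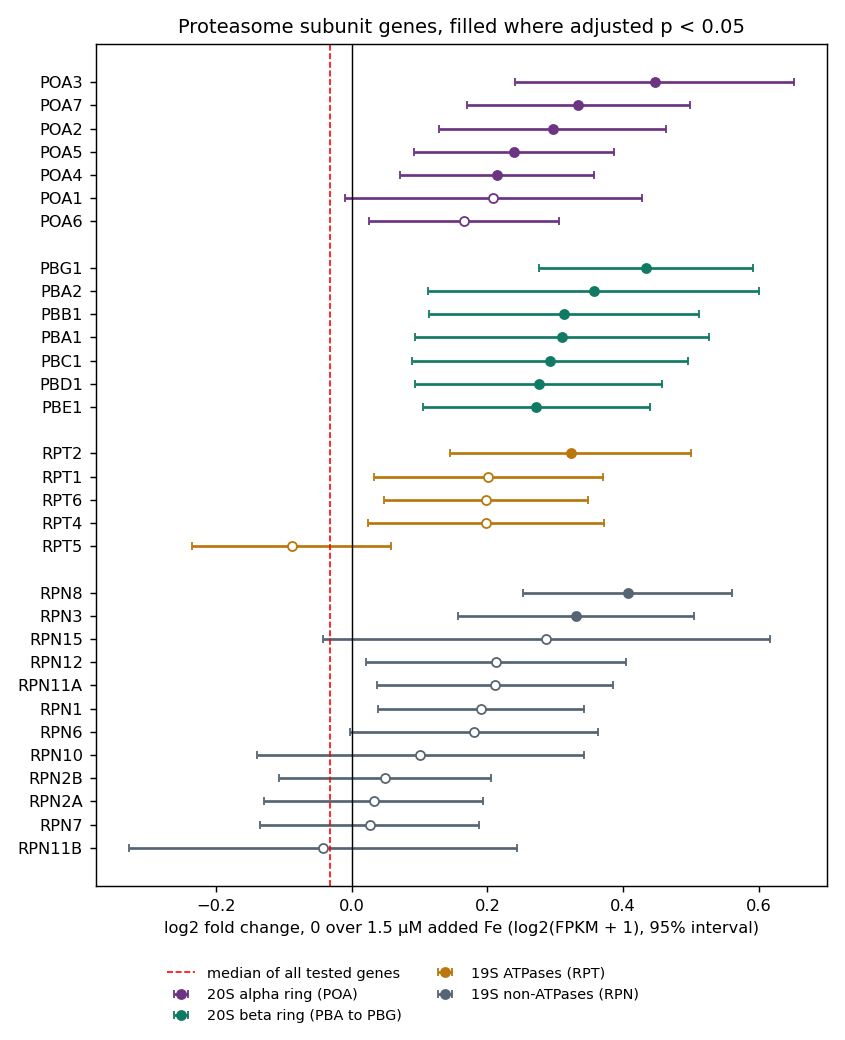
Log2 fold change of each of the 31 genes (0 over 1.5 µM added iron, on log2(FPKM + 1)) with its 95% interval, grouped by role and filled where the limma adjusted p is under 0.05; the dashed line is the median of all tested genes, -0.03. All 14 core genes lie right of 0, and of the 17 cap genes RPT5 and RPN11B lie left of it, though not with equal sums.

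The libraries were also compared over each complex. The median FPKM of the 14 core genes was 82.5, 89.1 and 80.2 at 0 µM, against 67.4, 73.5 and 71.5 at 1.5 µM. Their summed FPKM was 1176, 1214 and 1118 at 0 µM, against 922, 991 and 939 at 1.5 µM. The median FPKM of the 17 cap genes was 56.4, 59.8 and 55.9 at 0 µM, against 51.9, 49.2 and 50.2 at 1.5 µM. In both complexes the groups were apart, and replicate 2 had the highest median of the 0 µM libraries. Over all tested genes the median was 11.2, 11.8 and 11.9 FPKM at 0 µM and 11.7, 11.8 and 11.7 FPKM at 1.5 µM. Within same-numbered pairs of libraries the core genes had median log2 ratios of 0.35, 0.29 and 0.25 in replicates 1, 2 and 3, and the cap genes 0.12, 0.26 and 0.16. In all 3 pairs 26 of the 31 genes were higher at 0 µM, as were 28.5% of all tested genes.

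Most of the proteasome genes were among the higher expressed genes. Their mean levels lay between the 40.9th percentile (RPN11B) and the 94.5th (RPN15) of tested genes, with a median at the 87.6th. The median coefficient of variation between flasks was 5.55% at 0 µM and 4.19% at 1.5 µM, against 9.48% and 9.08% over all tested genes. The median SE of the fold change was 0.07, against 0.11 over all tested genes, so smaller changes could pass among the proteasome genes.

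The genes are spread over 13 scaffolds of the authors' assembly, and none of their models overlaps another gene. The closest pair was POA6 (scaffold_07, 1020579 to 1025941) and PBG1 (scaffold_07, 1039541 to 1044265), 13599 nt apart on the same strand with 1 gene between them. That gene, VTI2, is named for a vesicle SNARE and had 15.8, 17.5 and 16.3 FPKM at 0 µM and 17.4, 19.6 and 19.3 FPKM at 1.5 µM (-0.17, limma adjusted p = 0.1583). POA7 and RPN7 on scaffold_01 followed, 53973 nt apart with 2 genes between. The members of both pairs differed in their call: PBG1 and POA7 rose, and POA6 and RPN7 did not pass.

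Other genes of the ubiquitin pathway were taken by symbol patterns. Proteins are marked by E1 and E2 enzymes, which activate and carry ubiquitin or a relative of it, and by ligases. Of 28 E1 and E2 genes 26 were tested, and 5 rose and 2 fell (median 0.055), where 11.6% of all tested genes were called higher and 18.7% lower. The E2 gene UBC16 (Dte_g01070) had 402, 475 and 442 FPKM at 0 µM, against 36.1, 37.6 and 38.8 FPKM at 1.5 µM (log2 fold change 3.51, SE 0.08, limma adjusted p = 2.38e-07). Its groups lay far apart, and it was the only gene of these lists that rose at least 2-fold. Among the others that rose were RCE1 (0.32), UBC13 (0.29) and UBA3 (0.28), an E1 subunit for the ubiquitin relative RUB, and those that fell were UBC17 (-0.49) and UBC15 (-0.45). UBA1, the E1 enzyme for ubiquitin, did not pass (0.20, limma adjusted p = 0.0554). With replicates 1 and 2 alone UBC16 kept its call and the other 6 lost theirs (4.88% of all tested genes higher and 10.1% lower). When single libraries were left out, 1 to 3 genes of the list were higher and 1 or 2 lower, where 7.05% to 11.4% of all tested genes were higher and 13.6% to 16.9% lower. With equal sums UBC17 and UBC15 were not called, and 9.63% of all tested genes were lower.

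In the list of ligase complexes 4 of 16 genes rose and limma called 0 lower (0 also at an unadjusted p under 0.05; median 0.17), where 11.6% of all tested genes were called higher and 18.7% lower. CDC20, an activator of the anaphase-promoting complex, had 28.4 ± 1.82 FPKM at 0 µM, against 18.7 ± 1.13 FPKM at 1.5 µM (SD, n = 3 each; 0.58, SE 0.08, limma adjusted p = 0.00193). Its groups were apart, and it kept its call in all alternatives. APC10 (0.47) and APC6 (0.30), named for subunits of that complex, and CSN2 (0.24), of the COP9 signalosome, passed narrowly (limma adjusted p = 0.04779, 0.04412 and 0.04333) and lost their calls with replicates 1 and 2 alone. APC6 lost it with the replicate block too (limma adjusted p = 0.0569). Without 0 µM replicate 2 or 3, or any 1 library at 1.5 µM, CDC20 was the only call of the list. Of the cullin genes, whose products are scaffolds of ligases, CUL2 (-0.06) and CUL4 (0.03) had values near 0 and did not pass.

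Of 4 genes for ubiquitin and its relatives 1 rose, SUMO2 (0.54, limma adjusted p = 0.03439), where 11.6% of all tested genes were called higher, and UBQ4 (-0.07) and UBQ5 (0.09) did not pass. That call was lost without any 1 of the 3 libraries at 0 µM and without replicate 2 or 3 at 1.5 µM, with replicates 1 and 2 alone and without the filter on low values. SMT1 entered that list by its pattern, and its symbol is also used for a sterol enzyme. No gene matched the pattern for deubiquitinases. None of the 3 genes for substrate delivery passed (0 also at an unadjusted p under 0.05 in limma): CDC48, the ATPase that extracts ubiquitinated proteins, stood at 0.16, the shuttle gene RAD23 at -0.09 and DDI1 at 0.01. UMP1, the assembly chaperone of the core, had 122, 131 and 115 FPKM at 0 µM and 103, 124 and 92.5 FPKM at 1.5 µM (0.21, SE 0.11, limma adjusted p = 0.2003). Its groups overlapped through replicate 2 at 1.5 µM, and without that library UMP1 was called higher.

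Lists of other routes of protein quality control are given for scale. In the cytosolic chaperonin list, for the folding chamber of the cytosol, 5 of 10 genes rose: CCT4 (0.34), CCT7 (0.31), CCT3 (0.29), CCT5 (0.28) and CCT2 (0.27), with a median of 0.22 and 0 called lower (0 also at an unadjusted p under 0.05 in limma). CCT10 (-0.26) and CCT11 entered that list by its pattern and did not pass. They had means of 4.45 and 7.07 FPKM at 0 µM, below the rest of the list, and their identity was not checked. Of 38 genes in the list of organelle proteases and their partners 2 rose and 15 fell (median -0.22). Over all tested genes 11.6% were called higher and 18.7% lower, which is the share to read all 3 lists of this paragraph against. EGY1, a plastid membrane protease, had 43.5, 42.8 and 42.5 FPKM at 0 µM, against 96.5, 94.8 and 96.4 FPKM at 1.5 µM (-1.14, SE 0.06, limma adjusted p = 1.306e-05). FTSHI6 (-0.78), FTSH2 (-0.61), CLPC1 (-0.56), CLPB3 (-0.47) and FTSH1 (-0.33) fell too, and CLPS1 (0.46) and CLPD1 (0.50) rose. With equal sums that list had 9 genes higher and 4 lower (28.3% and 9.63% of all tested genes), and of the genes named here as falling CLPB3 and FTSH1 were no longer called. Of 13 autophagy genes 1 (7.69%) rose, ATG7 (0.37, limma adjusted p = 0.03821), with 0 called lower (2 lower at an unadjusted p under 0.05 in limma; median 0.07). The call of ATG7 was lost in 5 of the 6 fits without a single library, all but that without 1.5 µM replicate 1, and with the replicate block (limma adjusted p = 0.0517). The protease gene CLPR3 lost its call with the block too (limma adjusted p = 0.053). Without single libraries the chaperonin list had 2 to 5 genes higher, with CCT4 and CCT5 among them each time, the protease list 1 or 2 higher and 7 to 10 lower, and the autophagy list 0 to 2 higher and 0 or 1 lower. In those fits 7.05% to 11.4% of all tested genes were called higher. The share called lower was 14.5%, 14.0% and 16.8% without replicate 1, 2 or 3 at 0 µM. It was 15.3%, 16.9% and 13.6% without replicate 1, 2 or 3 at 1.5 µM. With replicates 1 and 2 alone no chaperonin or autophagy gene was called, and of the organelle proteases 6 were lower and 0 higher (10.1% and 4.88% of all tested genes).

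**Figure D4:**
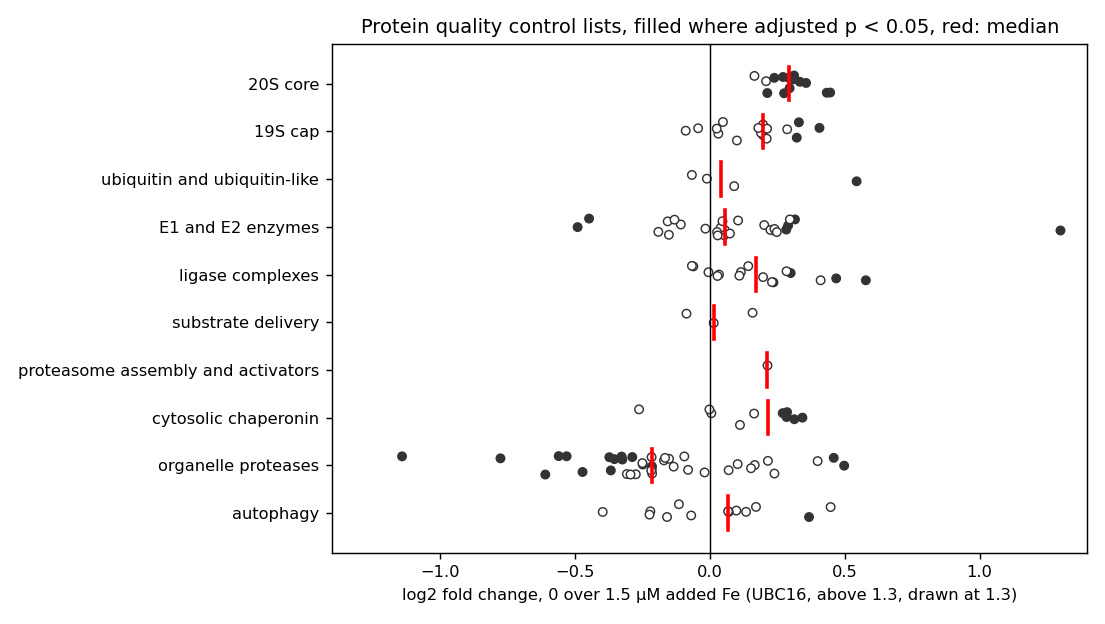
Log2 fold change (0 over 1.5 µM added iron) of the tested genes of the 20S core, the 19S cap and 8 other lists; each point is a gene, filled where the limma adjusted p is under 0.05, and red bars are medians. The core genes all lie right of 0 with a median of 0.29, and the organelle proteases have a median of -0.22.

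Other settings of the fit also moved the counts. Without the variance trend 7 core and 3 cap genes were higher, where 10.9% of all tested genes were, and without the filter on low values 11 and 5 (9.38% of all). With the filter at 5 FPKM 12 core and 4 cap genes were higher (14.5% of all), and with the replicate number as a block 11 and 3 (14.3% of all). The pseudocounts of 0.1 and 0.01 FPKM and robust eBayes gave the counts of 12 and 3 again (11.5%, 11.4% and 11.5% of all). The share of core genes called higher was above that of all tested genes in each setting run. With replicates 1 and 2 alone this rested on 1 of 14 genes, PBG1, against 4.88% of all tested genes. The share of cap genes was below that of all tested genes without 0 µM replicate 2, with 1 of 17 genes against 7.05%.

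**Figure D5:**
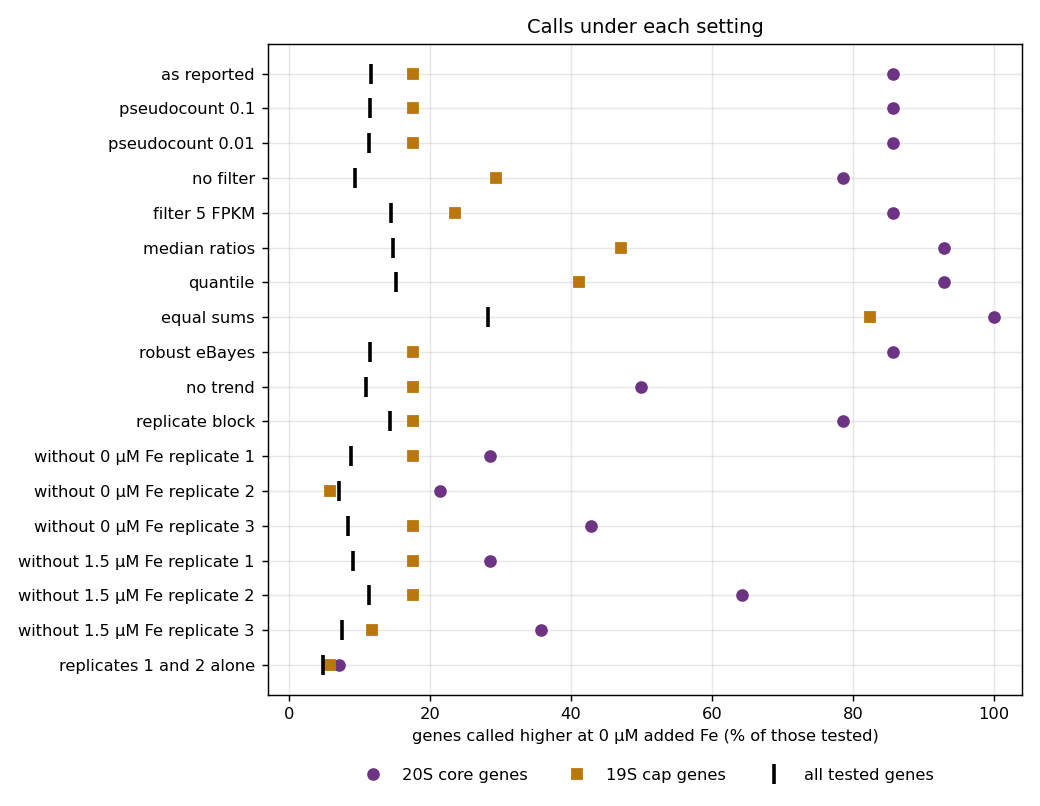
Percent of the tested genes called higher at 0 µM added iron (limma adjusted p under 0.05) for the 20S core (circles), the 19S cap (squares) and all tested genes (ticks), in the fit as reported and in 17 other settings. The core has 12 of 14 genes called as reported, 14 with equal sums and 1 with replicates 1 and 2 alone.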

How the data were processed

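Per the series design text, the authors aligned 50 nt single-end reads with RNA STAR to their own assembly and obtained FPKM per gene and library with cuffdiff. Versions in the submitters' processing notes are 2.4.0j for STAR and 2.0.2 for Cuffdiff. The deposited FPKM values were used as they stand, as log2(FPKM + 1), for the 11273 genes with a mean of at least 1 FPKM. Count models were left aside, since FPKM are no counts. The iron levels were tested two-sided by limma 3.58.1 under R 4.3.3, with an eBayes trend, with Benjamini-Hochberg adjustment over all tested genes. The procedure was tested on simulated data. Alternatives were other pseudocounts, filters, scalings and variance models, a replicate block, and fits without single libraries or without both replicate 3 libraries. Symbols and positions were taken from the deposited annotation, whose models hold coding sequence (98.5% of nuclear coding lengths are multiples of 3). Every subunit gene is accounted for, with per-library values for those called and for the extremes of each part, and of other lists the called genes up to the 6 with the smallest p. CLPS1, CLPD1, CLPR3, RPN2A, RPN2B, RPN11B, RPN15, UMP1 and others with values were named after their values were seen. A called gene of the E1 and E2 list is not reported here. The members and lists were chosen with earlier results of these data known. Deviations from the group means correlated at 0.24, 0.26 and 0.17 between libraries of the same number, so same-numbered libraries were treated as pairs in the block fit. The labels do not state such a pairing. Tables were joined with pandas 2.3.3 and drawn with matplotlib 3.10.9.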

Additional observations from a re-analysis of the deposited data

How the results depend on the processing

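The proteasome genes called higher numbered 15 of 31, and between 4 and 12 when 1 library was left out, with 3 to 9 for the 20S and 1 to 3 for the 19S genes. Over all tested genes these fits gave 795 to 1288 higher and 1526 to 1910 lower. With replicates 1 and 2 alone, chosen after seeing the data, the counts were 2 for the proteasome (1 for the 20S and 1 for the 19S), and 549 higher and 1136 lower over all tested genes. Equal sums gave 28 (14 and 14), with 3189 higher and 1086 lower over all, and medians of 0.52 for the 20S and 0.42 for the 19S genes. For the 19S genes 8 were higher with median ratios, 7 with quantile normalization and 5 without the filter, and for the 20S genes 7 without the variance trend. With the replicate block 14 of 31 were higher, 11 of the 20S and 3 of the 19S, and PBC1 was the call lost.

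The replicate block changed no other proteasome call, and of the other lists it ended those of APC6, ATG7 and CLPR3 among the genes reported. No proteasome gene was called lower in any setting. Genes near 0 changed sign without passing. RPN11B stood at 0.0040 with median ratios, at 0.16 with equal sums and at 0.10 with replicates 1 and 2 alone, and RPT5 at 0.14 with equal sums. With replicates 1 and 2 alone RPN2A stood at -0.021 and RPN7 at -0.018. Without single libraries RPN11B ranged over -0.15 to 0.036, RPN2A over -0.0052 to 0.061 and RPN7 over -0.0081 to 0.066. Fewer samples enter the fits without a library. The cause of the other shifts was not tested. FPKM do not give the reads behind a value, so depth was not used to judge low genes.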

Other observations

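UBC16, the E2 gene that rose without added iron, lies on the minus strand of scaffold_03 from 13415101 to 13419984. The next gene, Dte_g01071, which has no symbol and was singled out after its values were seen, starts 341 nt further on the plus strand and runs from 13420326 to 13422105, so the genes are divergent. Dte_g01071 had 1609, 1420 and 1372 FPKM at 0 µM, against 2.81, 3.64 and 3.53 FPKM at 1.5 µM (log2 fold change 8.41, SE 0.10, limma adjusted p = 1.099e-08). UBC16 was higher as well in all 3 libraries at 0 µM, and whether their levels are linked was not tested.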
